A study of Mus musculus with 9 samples.

Results

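Polarity and asymmetric division genes were followed in mouse oocytes: Prkci, Pard3, Pard6a, Pard6b, Cdc42 and Rac1 of the polarity pathway, and Fmn2, Spire1, Spire2 and Actr2 of actin nucleation. The genes were chosen by name, with earlier results of these data known. Every probe set that the platform annotation assigns to one of them alone was used. This gave 25 probe sets of 9 genes, out of 45037 probe sets and 18193 genes on the array. No probe set was matched to Actr2, a subunit of the Arp2/3 complex, so it was not analysed here. Polysome-bound mRNA, the fraction loaded with ribosomes, was hybridised to 9 Affymetrix arrays of the mouse genome, 3 for each stage. The earliest stage was the germinal vesicle (GV) oocyte, arrested in prophase and taken at 0 h, followed by metaphase I (MI) at 4 h and metaphase II (MII) at 14 h after an injection of hCG (human chorionic gonadotropin). All mice had been primed with PMSG (pregnant mare's serum gonadotropin) 48 h earlier, and the labels give neither strain nor age. The descriptions of the MI samples carry the code pGVB, which is not explained. The replicates are labelled biological, but the labels name no separate animals. The p-values thus speak of the spread among these arrays alone, which may be technical.

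An oocyte divides very unequally, keeping nearly all its cytoplasm and giving off small polar bodies. To do this, the spindle moves to the cortex along an actin network that the formin Fmn2 and the nucleators Spire1 and Spire2 build. Chromatin near the cortex then sets up a polarised cap rich in actin, in which the small GTPases Cdc42 and Rac1, the PAR proteins and the Arp2/3 complex take part. The PAR complex consists of the scaffold Pard3, the adaptors Pard6a and Pard6b and the atypical protein kinase C encoded by Prkci, and Cdc42 binds the PAR6 adaptors.

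Array medians lay between 12.39 and 13.22, and between 53.1% and 54.8% of probe sets of an array were under an intensity of 16. The 95th percentile was 1126 to 1221 on MII arrays, 1163 to 1458 on MI arrays and 1287 to 1442 on GV arrays. All 12 oocyte markers were measured, and each exceeded an intensity of 100 on at least 1 array, while 9 of 18 granulosa, cumulus and theca markers and 6 of 8 blood, immune and endothelial markers stayed under 100 on all 9 arrays. The summed intensity of the granulosa, cumulus and theca list was 770 to 1176 on MII arrays, 1095 to 1474 on MI arrays and 1144 to 1449 on GV arrays. Within it Fshr stayed at or under 13.95 on all arrays, while Cyp11a1 reached 782 and Gja1 340 on GV arrays. Nr5a2 had 204, 725 and 404 on MII arrays, against 29.7, 106 and 120 on GV arrays. The summed blood, immune and endothelial list was 652 to 922 on MII arrays, 126 to 645 on MI arrays and 182 to 377 on GV arrays. Pecam1 made up most of it on MII arrays, with 569, 627 and 785. It had 44.0, 79.9 and 442 on MI arrays and 91.6 to 298 on GV arrays. The summed oocyte markers were 31150 to 37914 on MII arrays and 63274 to 67464 on GV arrays. The 12 did not all go the same way, since 3 were higher in MII than in GV oocytes. Oosp1 had 8072, 8849 and 9069 on MII arrays against 4229, 4545 and 3332 on GV arrays. Dazl had 2127, 1735 and 1877 on MII arrays against 908, 823 and 839 on GV arrays. The array of MI replicate 3 stood apart, since the median of its granulosa, cumulus and theca list was 6.04 (log2) against 4.77 to 5.10 on the other 8 arrays. The part of these marker differences in the results was not tested. Fewer cells and less mRNA on polysomes per cell cannot be told apart in such bulk samples.

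By MII, the mRNAs of Prkci, Pard6b, Fmn2 and Spire1 were higher on polysomes than in GV oocytes, and 1 of the 4 probe sets of Cdc42 was lower. Changes were computed from log2(intensity + 16), so those of dim genes are understated. A probe set is said to have passed where limma's p, adjusted by Benjamini-Hochberg over all 45037 probe sets, was under 0.05. Between MII and GV, 7 probe sets of 4 genes rose, 1 probe set of 1 gene fell and 17 did not pass. Over the whole array, 3.75% of probe sets rose and 5.23% fell in this comparison, and 6.74% of genes had at least 1 probe set that rose and 9% at least 1 that fell. Genes with more probe sets have more chances to be counted. Since the 9 genes were chosen with earlier results of these data known, the shares beside them are descriptions only. Probe sets whose names end in _s_at or _x_at can match transcripts of more than 1 gene. In the lists further below, the brightest probe sets of Ran, Ywhaq and Cfl1 end in _x_at. With each gene taken at its brightest probe set, 4 of 9 rose and none fell, against 4.8% and 7.92% of all 18193 genes. The median log2 change of these 9 values was 1.09, beside -0.03 over all genes. For 4 of the 9 all MII arrays lay above all GV arrays, and for 1 they lay below, against 14.3% and 17.6% of all genes. All genes include many near background, where a call is unlikely and changes are pulled towards no change. These 9 probe sets were bright, with only 1.15% (Fmn2) to 25.8% (Spire2) of probe sets brighter by mean. They were not compared with genes of like intensity.

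**Figure D1:**
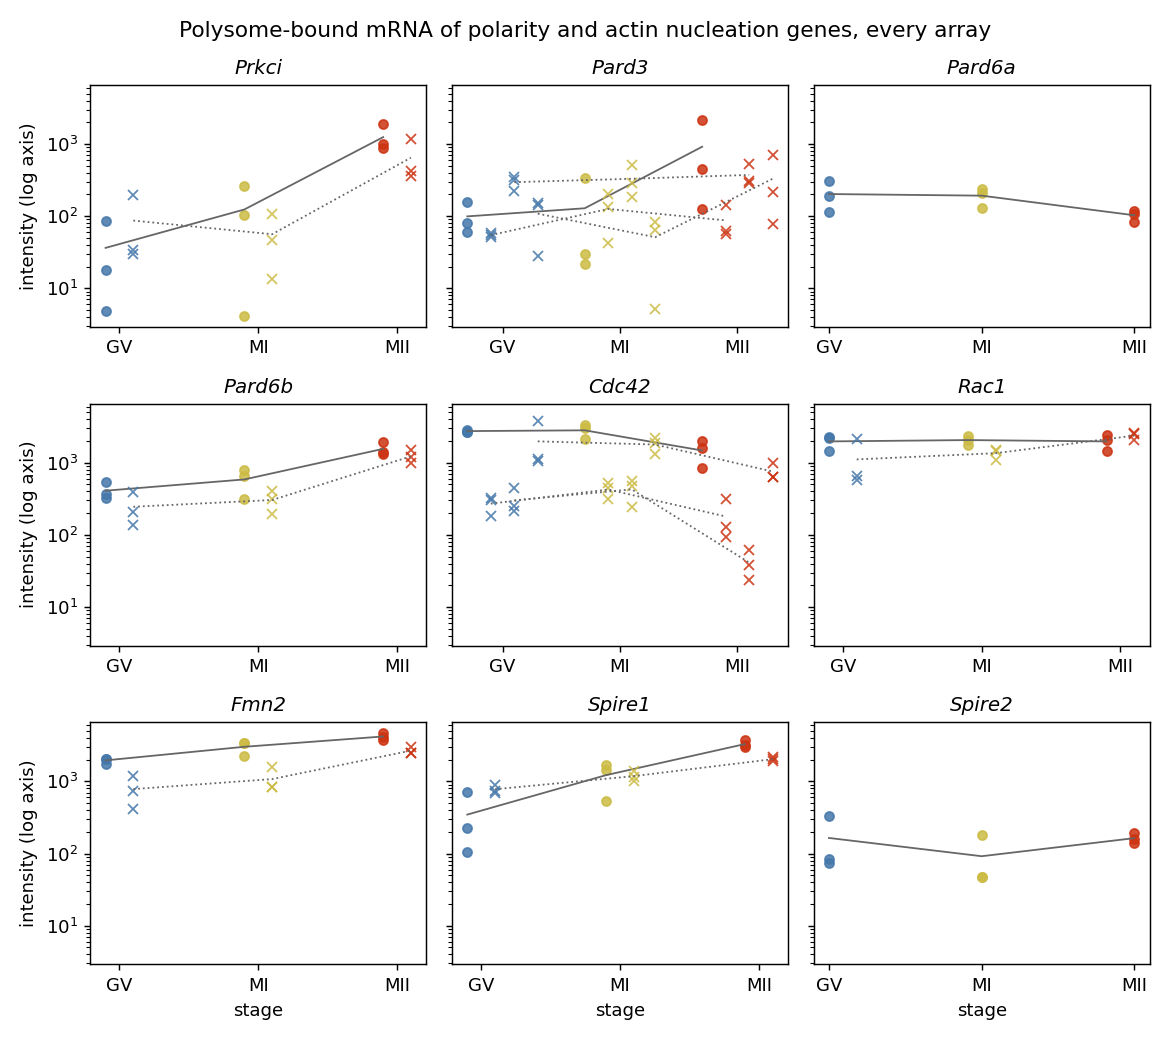
Intensity (log axis) on each of the 9 arrays by stage, for the 20 probe sets of 9 genes that reached 100 on at least 1 array. Circles and solid lines are the brightest probe set of a gene, crosses and dotted lines its others, and lines join the means of 3 arrays. The MII arrays of Pard6b, Fmn2 and Spire1 lie above all GV and MI arrays at both probe sets shown, those of Prkci likewise, while Rac1 is flat at its brightest probe set.

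Promoter sequences are shown for the genes with a call between MII and GV, where the RefSeq table (GRCm38.p6) held one that can be given here. They show the region around the start of Prkci, Pard6b, Fmn2 and Cdc42, and none is shown for Spire1. The arrays measured polysome-bound mRNA and no promoter activity. Each stretch runs from 250 bases before to 50 bases after its annotated start. For Prkci and Fmn2 that start is not the first base of the gene record (chr3:30995742 and chr1:174501752). Matches on either strand to CCAAT (the CCAAT box), TATAAA (the TATA box) and GGGCGG (the GC box) are in capitals. The table held a promoter for 8 of the 10 genes. Those of Prkci (chr3:30995521-30995820, plus strand), Pard6b (chr2:168080754-168081053, plus strand), Fmn2 (chr1:174501575-174501874, plus strand) and Cdc42 (chr4:137357710-137358009, minus strand) read:
Prkci: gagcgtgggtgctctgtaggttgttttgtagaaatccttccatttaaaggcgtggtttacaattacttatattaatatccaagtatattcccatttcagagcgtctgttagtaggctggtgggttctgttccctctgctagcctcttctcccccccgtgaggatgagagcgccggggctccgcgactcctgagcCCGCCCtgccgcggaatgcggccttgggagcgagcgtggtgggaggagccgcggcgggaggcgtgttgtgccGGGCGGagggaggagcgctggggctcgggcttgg
Pard6b: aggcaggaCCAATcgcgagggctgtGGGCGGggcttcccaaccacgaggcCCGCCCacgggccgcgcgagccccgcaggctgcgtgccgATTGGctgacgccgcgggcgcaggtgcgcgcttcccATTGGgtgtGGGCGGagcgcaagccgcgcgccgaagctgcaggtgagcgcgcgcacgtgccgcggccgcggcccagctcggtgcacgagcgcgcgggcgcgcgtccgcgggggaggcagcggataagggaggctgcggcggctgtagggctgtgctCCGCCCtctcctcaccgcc
Fmn2: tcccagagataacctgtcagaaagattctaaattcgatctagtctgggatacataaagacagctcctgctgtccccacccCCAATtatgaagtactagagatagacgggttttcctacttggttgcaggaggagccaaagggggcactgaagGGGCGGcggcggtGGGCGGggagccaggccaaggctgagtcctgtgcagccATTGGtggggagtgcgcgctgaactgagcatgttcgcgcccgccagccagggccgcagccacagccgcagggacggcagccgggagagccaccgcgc
Cdc42: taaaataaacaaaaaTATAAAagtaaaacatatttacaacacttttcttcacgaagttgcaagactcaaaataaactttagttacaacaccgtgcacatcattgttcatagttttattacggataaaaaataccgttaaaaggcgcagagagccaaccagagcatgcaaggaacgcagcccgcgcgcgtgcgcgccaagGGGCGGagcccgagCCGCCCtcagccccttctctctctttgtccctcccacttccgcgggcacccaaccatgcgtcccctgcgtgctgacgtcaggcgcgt

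A match describes these letters only. The promoters of Pard6b and Fmn2 held 3 and 2 matches to CCAAT, and those of Prkci and Cdc42 held 0. GGGCGG matched 4 times in Pard6b and 2 times in each of the others. TATAAA matched once, in Cdc42. Of all 32851 promoters of this length, 37.4% held CCAAT, 13.6% TATAAA and 35.7% GGGCGG. The G and C content was 77% in Pard6b, 61% in Fmn2, 59.7% in Prkci and 49.3% in Cdc42, beside a median of 52.7% over all promoters.

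Prkci, the catalytic subunit of the PAR complex, had the largest log2 change of the 25 probe sets between MII and GV. At its brightest probe set (1417410_s_at) intensities were 85.9, 4.88 and 18.1 on GV arrays, 264, 103 and 4.14 on MI arrays and 876, 992 and 1874 on MII arrays. All MII arrays lay above all GV and MI arrays, and GV and MI arrays overlapped. The mean was 1248 ± 546 in MII and 36.3 ± 43.5 in GV oocytes (SD, n = 3 each), a log2 change of 4.84 (SE 0.98, limma adjusted p = 0.0211) or 28.6-fold. GV arrays at 4.88 and 18.1 are at or near the level of the median probe set, so the size of this fold rests on values close to background. The call was lost without GV replicate 2 (adjusted p = 0.0733) or 3 (0.0699) and without MII replicate 1 (0.0524), 2 (0.0561) or 3 (0.0759), while the log2 change stayed between 4.34 and 5.48 in the 9 fits that left out 1 array. Against MI it was 3.77 (SE 0.98, limma adjusted p = 0.0738). This change passed in 7 of 20 alternatives, but in 0 of the 9 fits that left out 1 array. Among the 7, the adjusted p was 0.00687 with the mean of all Prkci probe sets and 0.0491 with 1 probe set a gene.

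The other probe set of Prkci (1448695_at) gave 30.0, 34.2 and 196 on GV arrays, 13.5, 108 and 46.5 on MI arrays and 416, 1165 and 361 on MII arrays. Here too every MII array lay above every GV and MI array. Its log2 change was 2.87 against GV (limma adjusted p = 0.0629) and 3.24 against MI (0.0571), short of the threshold in both comparisons. The 2 probe sets thus gave the same direction, and MII was above both earlier stages at each.

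Pard6b, a PAR6 adaptor that links Cdc42 to the kinase, was measured by 2 probe sets that both passed between MII and GV. At 1423175_s_at intensities were 535, 321 and 372 on GV arrays, 791, 657 and 312 on MI arrays and 1326, 1427 and 1921 on MII arrays. At 1423174_a_at they were 390, 208 and 137 on GV arrays, 400, 316 and 197 on MI arrays and 985, 1209 and 1485 on MII arrays. At both, the lowest MII array exceeded the highest GV and MI array, and the GV and MI arrays overlapped. The brightest probe set averaged 1558 ± 319 in MII and 410 ± 112 in GV oocytes (SD, n = 3 each), a log2 change of 1.90 (SE 0.36, limma adjusted p = 0.0173) or 3.73-fold. The other changed by 2.35 (SE 0.40, limma adjusted p = 0.0106) or 5.09-fold and passed in all 9 fits that left out 1 array. For the brightest, the call was lost without GV replicate 2 (adjusted p = 0.0627) or 3 (0.0593) or MII replicate 3 (0.0636), and with pseudocount 1 (0.0512). Between MII and MI, 1423174_a_at also rose, by 1.99 (limma adjusted p = 0.0294). That call was lost with pseudocount 1 (0.0732) and without GV replicate 2 (0.0517), MI replicate 2 (0.0853) or 3 (0.0736) or any one of the MII arrays (0.0575 to 0.0997). At the brightest probe set the change between MII and MI was 1.47 (adjusted p = 0.0643) and did not pass.

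Pard6a, the second PAR6 adaptor, had 1 probe set, and its change did not pass. Intensities were 189, 116 and 303 on GV arrays, 209, 130 and 239 on MI arrays and 84.2, 106 and 118 on MII arrays. Every MII array lay below every MI array, while MII and GV arrays overlapped at 118 and 116. The log2 change was -0.80 between MII and GV (95% interval -1.61 to 0.02, limma adjusted p = 0.264) and -0.78 between MII and MI (adjusted p = 0.325). The difference between Pard6a and Pard6b was not tested.

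Pard3, the scaffold of the PAR complex, varied widely between arrays of a stage and between its 4 probe sets. At the brightest (1436764_at) intensities were 157, 60.8 and 80.3 on GV arrays, 334, 30.3 and 21.4 on MI arrays and 445, 127 and 2182 on MII arrays. The MII arrays lay far apart and overlapped both other stages, and the log2 change between MII and GV was 2.27 with a 95% interval of -0.36 to 4.91 (limma adjusted p = 0.341). MII replicate 3 was also the highest array of 1436765_at, with 694, against 217 and 78.7 on the other MII arrays. Of the other 2 probe sets, 1434775_at ranged from 184 to 525 over the 9 arrays and 1420391_at from 42.2 to 200, with log2 changes between MII and GV of 0.29 and 0.46. None of the 4 probe sets passed in any comparison.

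Cdc42, a GTPase active at the cortical cap, was lower on every MII array than on any GV or MI array at 3 of its 4 probe sets, and 1 of them passed. At 1435807_at intensities were 442, 249 and 212 on GV arrays, 564, 241 and 478 on MI arrays and 23.7, 38.0 and 62.1 on MII arrays. All MII arrays lay far below the others, and GV and MI arrays overlapped. The mean was 41.2 ± 19.4 in MII, 428 ± 167 in MI and 301 ± 124 in GV oocytes (SD, n = 3 each). The log2 change was -2.93 between MII and MI (SE 0.41, limma adjusted p = 0.00806), or 7.60-fold lower, and -2.46 between MII and GV (adjusted p = 0.0105), or 5.48-fold lower. Both calls were kept in every one of the 9 fits that left out 1 array and in the other alternatives in which this probe set entered.

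The brightest probe set of Cdc42 (1449574_a_at) gave 2657, 2709 and 2876 on GV arrays, 2125, 3330 and 2993 on MI arrays and 1582, 2003 and 851 on MII arrays. The MII arrays again lay below all others, but the log2 change of -0.97 against GV did not pass (95% interval -1.71 to -0.23, limma adjusted p = 0.123), nor did -0.98 against MI (0.152). At 1460708_s_at the MII arrays, 626 to 1007, also lay below the GV arrays, 1042 to 3761, and the MI arrays, 1306 to 2191, with log2 changes of -1.14 and -1.23. At 1415724_a_at the stages overlapped, with log2 changes of -0.68 against GV and -1.31 against MI. All 4 probe sets pointed down against both stages. The size between MII and GV differed, from 5.48-fold lower at the probe set that passed to 1.60-fold lower at 1415724_a_at. With the mean of all 4 probe sets taken as 1 value, Cdc42 passed against MI (log2 change -1.61, adjusted p = 0.0049) and GV (-1.31, adjusted p = 0.00655).

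Rac1, a GTPase of the same family, did not pass at any of its 3 probe sets. At the brightest (1423734_at) intensities were 1436, 2308 and 2184 on GV arrays, 1782, 2046 and 2360 on MI arrays and 1448, 2401 and 2078 on MII arrays. The 3 stages covered the same range, and the log2 change between MII and GV was 0.00 with a 95% interval of -0.61 to 0.61 (limma adjusted p = 1.00). At 1451086_s_at intensities were 2114, 576 and 646 on GV arrays, 1457, 1515 and 1098 on MI arrays and 2562, 2469 and 2100 on MII arrays. MII lay above MI on every array, while GV replicate 1 lay within the MII range. The log2 change between MII and GV at this probe set was 1.34 (limma adjusted p = 0.135). In 2 of 18 alternatives it passed. These were 1.93 (adjusted p = 0.0063) without GV replicate 1 and 1.65 (0.0402) after quantile normalization. Without GV replicate 2 the log2 change was 1.01 (adjusted p = 0.339), and without GV replicate 3 it was 1.09 (0.333). The third probe set of Rac1 stayed at or under 8.83 on every array.

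Fmn2, the formin whose loss leaves the oocyte spindle off the cortex, rose between GV and MII at both of its probe sets with signal. At the brightest (1450063_at) intensities were 2063, 1741 and 2074 on GV arrays, 3365, 2278 and 3429 on MI arrays and 4650, 4149 and 3808 on MII arrays. The stages did not overlap and followed the order GV, MI, MII. The mean was 4202 ± 423 in MII and 1959 ± 189 in GV oocytes (SD, n = 3 each), a log2 change of 1.09 (SE 0.20, limma adjusted p = 0.0149) or 2.14-fold. Neither step passed on its own, with log2 changes of 0.60 between MI and GV (adjusted p = 0.68) and 0.49 between MII and MI (adjusted p = 0.271). At 1450064_at intensities were 1202, 419 and 726 on GV arrays, 1573, 825 and 837 on MI arrays and 2519, 3048 and 2457 on MII arrays. There GV and MI overlapped, MII lay above both, and the log2 change between MII and GV was 1.87 (adjusted p = 0.0271) or 3.66-fold. The call at the brightest was lost without GV replicate 2 (adjusted p = 0.0539) or MII replicate 1 (0.0514) and with pseudocount 1 (0.18). That at 1450064_at was lost without GV replicate 2 or 3 or any one of the MII arrays (adjusted p from 0.0633 to 0.0842) and with pseudocount 1 (0.0641).

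Spire1, an actin nucleator that works with Fmn2, rose between GV and MII at 2 probe sets, and its other 3 were low, under 100 on every array. At 1454962_at intensities were 740, 698 and 902 on GV arrays, 1409, 1013 and 1134 on MI arrays and 1892, 2026 and 2189 on MII arrays. The 3 stages did not overlap at this probe set and again followed the order GV, MI, MII. The mean was 2036 ± 148 in MII and 780 ± 107 in GV oocytes (SD, n = 3 each), a log2 change of 1.37 (SE 0.18, limma adjusted p = 0.0041) or 2.59-fold, which passed in all 9 fits that left out 1 array, but not with pseudocount 1 (0.0847). Between MII and MI the log2 change was 0.78 (adjusted p = 0.0496). That call was lost whichever array was left out (adjusted p from 0.0527 to 0.150).

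At the brightest probe set of Spire1 (1455409_at) intensities were 709, 225 and 107 on GV arrays, 1683, 1451 and 535 on MI arrays and 2977, 3713 and 3204 on MII arrays. GV and MI arrays overlapped through GV replicate 1 and MI replicate 3, and MII lay above both. The mean was 3298 ± 376 in MII and 347 ± 319 in GV oocytes (SD, n = 3 each), a log2 change of 3.57 (SE 0.66, limma adjusted p = 0.0154) or 11.9-fold. The call was lost without GV replicate 2 (adjusted p = 0.0552) or MII replicate 2 (0.0508) or 3 (0.0514). With all 5 probe sets of Spire1 averaged, the low ones included, the log2 change was 1.14. Between MI and GV the log2 change at 1455409_at was 2.00 (adjusted p = 0.674), the largest at that step among the brightest probe sets of the 9 genes.

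Spire2, the close relative of Spire1, had 1 probe set with weak signal. Intensities were 83.5, 335 and 74.5 on GV arrays, 180, 47.7 and 47.6 on MI arrays and 191, 142 and 157 on MII arrays. The stages overlapped except that 2 of the 3 MI arrays were the lowest of all 9. The log2 change between MII and GV was 0.28 with a 95% interval of -1.14 to 1.71 (limma adjusted p = 0.89). A rise like that of Spire1 at 1454962_at (1.37) would lie within this interval. One like that at the brightest probe set of Spire1 (3.57) would lie above it. The difference between Spire1 and Spire2 was not tested.

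**Figure D2:**
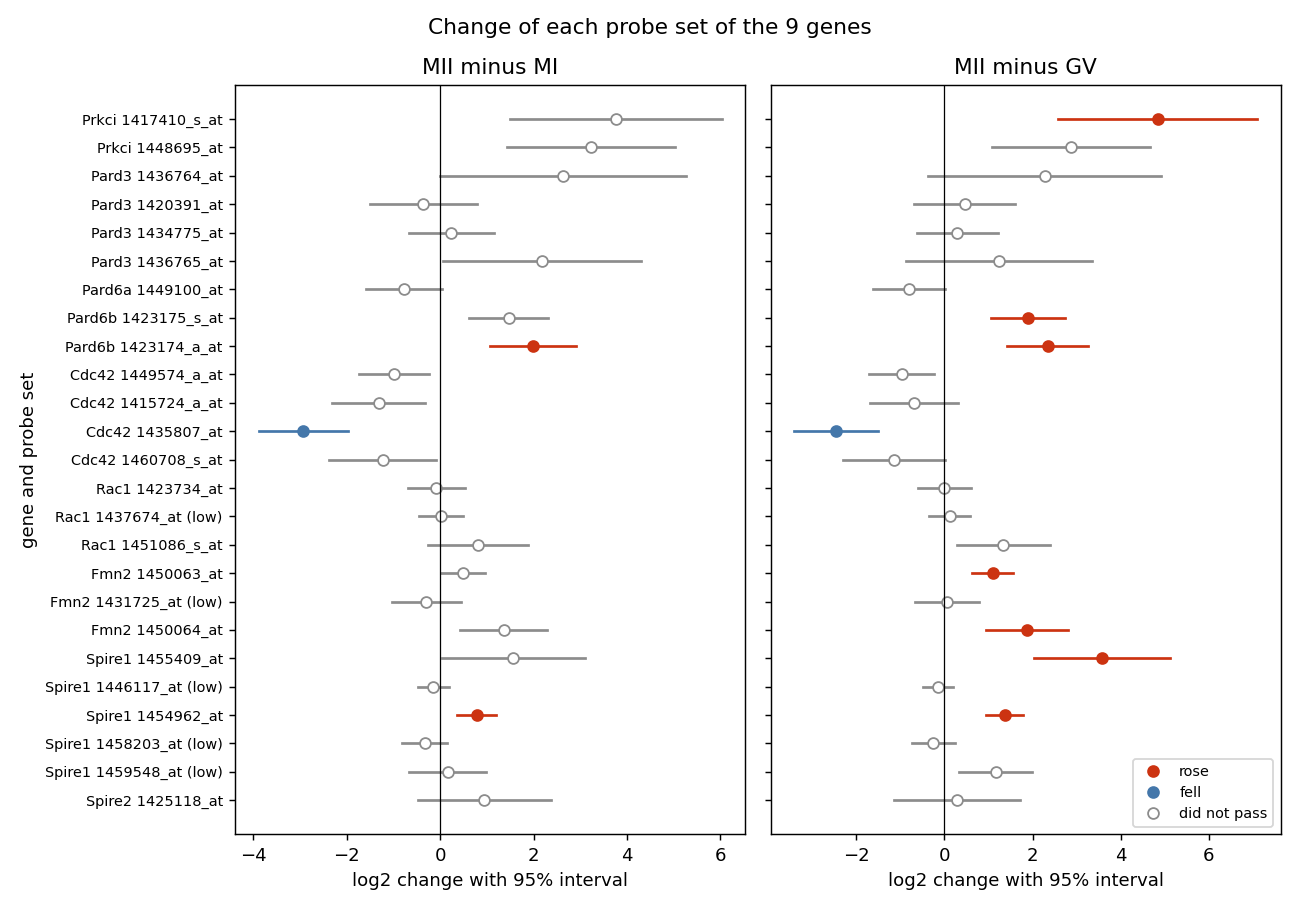
Log2 change with its 95% interval for all 25 probe sets, between MII and MI on the left and between MII and GV on the right. Filled red points rose and filled blue points fell at an adjusted p under 0.05, open grey points did not pass, and the 5 probe sets under 100 on every array are labelled low. On the right 7 probe sets of Prkci, Pard6b, Fmn2 and Spire1 are filled red and 1 of Cdc42 is filled blue.

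Between MI and GV 0 of 25 probe sets passed limma's test, as did 0 of 45037 on the whole array (0%). At an unadjusted p under 0.05 the array held 6.19% of probe sets, and Fmn2 (0.018) and Spire1 (0.0174) were the genes under it at their brightest probe sets. MI arrays lay above all GV arrays for 1 of the 9 genes (Fmn2) and below for 0, against 6.44% and 6.07% of all genes. Between MII and MI 2 probe sets rose (Pard6b and Spire1), 1 fell (Cdc42) and 22 did not pass, beside 1.57% and 3.85% of all probe sets. In that comparison 3.14% of genes had at least 1 probe set that rose and 6.71% at least 1 that fell. At the brightest probe sets 0 of 9 genes passed, against 2.06% of all genes that rose and 5.9% that fell, with a median log2 change of 0.95 beside -0.02 over all genes. MII arrays lay above MI arrays for 4 of 9 genes and below for 2, against 11.6% and 15.4% of all genes. The comparisons of MII with MI and with GV share the MII arrays.

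The genes whose profile over the 9 arrays lay closest to a member that passed were found by the root mean square difference of log2(intensity + 16) after each profile was centred on its own mean. For Fmn2 these were Dsn1 (a kinetochore protein, 0.15), Btbd10 (0.19) and Trmt11 (a tRNA methyltransferase subunit, 0.19), where the own spread of Fmn2 around its mean was 0.48. For Pard6b they were Tbc1d15 (a Rab GTPase-activating protein), Zcchc8 (a nuclear RNA decay cofactor) and Trp53inp1, all at 0.23, beside an own spread of 0.90. For Spire1 they were H60c, Zfp654 and Msantd2, all at 0.45, beside 1.64. For Prkci they were Lamp2 (a lysosomal membrane protein, 0.52), Usp45 (a ubiquitin protease, 0.74) and Mbtps2 (a membrane protease of the Golgi, 0.75), beside 2.35. These are descriptions over arrays of 3 stages.

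Around these genes, 5 further lists from the same machinery were read at the brightest probe set of each gene. Of the 19 other PAR and cortical polarity genes, 4 rose, 1 fell and 14 did not pass between MII and GV, against 4.8% of all genes that rose and 7.92% that fell, with a median log2 change of 0.87 beside -0.03 over all genes. Llgl2, a Lgl polarity protein, averaged 512 ± 59.2 in MII and 45.3 ± 19.8 in GV oocytes (SD, n = 3 each), a log2 change of 3.14 (limma adjusted p = 8.75e-04). Dlg1, a scaffold of the Scribble module, averaged 1158 ± 218 in MII and 126 ± 72.6 in GV oocytes (log2 change 3.17, adjusted p = 0.0198). Pard6g, the third PAR6 adaptor, averaged 345 ± 18.7 in MII and 33.5 ± 21.4 in GV oocytes (log2 change 2.97, adjusted p = 0.0127). Patj, a scaffold of the Crumbs complex, rose by 1.29 at its brightest probe set. Its dimmer ones had -0.26, -0.67 and -0.24, the last with a mean intensity of only 13.9, and did not pass. The member that fell was Ywhaq, a 14-3-3 protein, at -3.01. Between MII and MI, Llgl2 was the 1 that rose (3.35) and Ywhaq the 1 that fell (-2.60). The 4 rises against GV became 2 without GV replicate 1 or MII replicate 1 or 3.

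In the list of the Arp2/3 complex and its activators 3 of 25 rose, 1 fell and 21 did not pass between MII and MI, against 2.06% of all genes that rose and 5.9% that fell, with a median of -0.03 beside -0.02 over all genes. The 3 that rose activate the complex: Wasl by 1.36 (limma adjusted p = 0.027), Wasf1 by 2.50 (0.0231) and Wasf3 by 3.15 (0.0341). Arpc4, a subunit of the complex, fell by 1.51 (adjusted p = 0.0337), with 518 ± 156 in MII and 1491 ± 361 in MI oocytes (SD, n = 3 each). Actr3, the partner of Actr2 in the complex, had 0.01 between MII and MI and -0.95 between MII and GV (adjusted p = 0.0643). Between MII and GV 1 rose (Wasf3, 2.87) and 1 fell (Washc5, a WASH complex subunit, -3.06). These counts are small and moved with single arrays: the 3 rises against MI became 0 without MI replicate 2 and 1 without MI replicate 3 or MII replicate 2 or 3. The fall of Arpc4 was among the calls that ended, since the list held 0 falls against MI without GV replicate 3, MI replicate 1 or 2, or MII replicate 2 or 3.

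Of the 31 genes measured in the list of formins and actin assembly, none rose, 8 fell and 23 did not pass between MII and GV, against 4.8% of all genes that rose and 7.92% that fell. The list median was -0.06 beside -0.03 over all genes. Actg1, cytoplasmic gamma-actin, averaged 423 ± 110 in MII and 3441 ± 348 in GV oocytes (SD, n = 3 each), or 7.99-fold lower (limma adjusted p = 7.50e-04). Pfn2, a profilin, averaged 81.3 ± 104 in MII and 2301 ± 1043 in GV oocytes (log2 change -5.06, adjusted p = 0.00517), while its other 2 probe sets had -1.86 and -1.44 and did not pass. Capzb, a filament capping subunit, fell with a log2 change of -4.06 (adjusted p = 0.0276). Dstn, an actin depolymerising factor, fell with -3.23 (adjusted p = 0.00669). The other 4 that fell were Cfl1 (-2.85), Pfn1 (-1.91), Actb (-1.35) and Cfl2 (-1.18, with 0.92 at another probe set). Between MII and MI 6 of the 31 fell and none rose, against 5.9% and 2.06% of all genes. Fmn2 and Spire1 are not in that list.

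**Figure D3:**
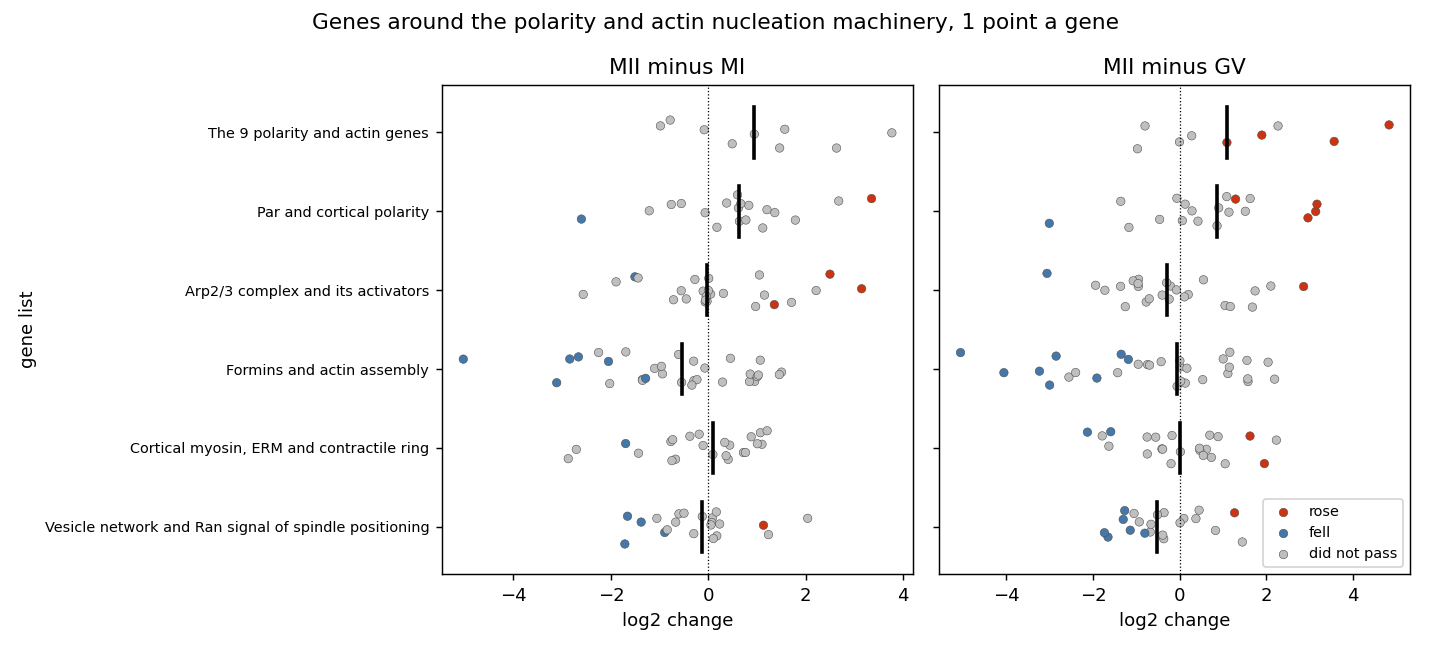
Log2 change of each gene at its brightest probe set, between MII and MI on the left and between MII and GV on the right, for the 9 genes (top row) and 5 surrounding lists. Red points rose, blue points fell, grey points did not pass, and black bars are list medians. On the right the 9 genes hold 4 red and no blue points, and the formin and actin assembly list 8 blue and no red points.

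Of the 23 genes of the cortical myosin, ERM and contractile ring list, 2 rose, 2 fell and 19 did not pass between MII and GV, against 4.8% and 7.92% of all genes, with a median of 0.02 beside -0.03. Anln, the scaffold anillin of the contractile ring, averaged 1507 ± 132 in MII and 415 ± 231 in GV oocytes (SD, n = 3 each), a log2 change of 1.96 (limma adjusted p = 0.0461). Ppp1r12a, the targeting subunit of myosin phosphatase, rose by 1.63 (adjusted p = 0.00945). Septin7 fell, with a log2 change of -2.13 (adjusted p = 0.0114), as did the myosin light chain gene Myl12a with -1.59 (adjusted p = 0.0229) at its brightest probe set, while its other had 0.84 (adjusted p = 0.628). Both counts became 1 without GV replicate 2 or 3 or MII replicate 1 or 3. Of the 21 genes of the vesicle network and the Ran signal, 1 rose, 6 fell and 14 did not pass, against 4.8% and 7.92% of all genes, with a median of -0.51 beside -0.03. Ran, the GTPase whose gradient around chromatin polarises the cortex, averaged 1594 ± 290 in MII and 3926 ± 542 in GV oocytes (log2 change -1.30, adjusted p = 0.0064), and Rcc1, its exchange factor on chromatin, rose by 1.27 (adjusted p = 0.0165). Rab11b had a log2 change of -1.73 at its brightest probe set (limma adjusted p = 0.0228). Its dimmer probe sets had 0.52 (adjusted p = 0.692) and -0.38 (0.749). Rab11a, a GTPase of the vesicles of the oocyte actin network, had -1.65 at its brightest probe set (adjusted p = 0.0114), while another had 3.01 (adjusted p = 0.0611). The 6 falls of this list became 2 without any one of the GV arrays or without MII replicate 2, and 0 at pseudocount 1.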

How the data were processed

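Values were the authors' deposited intensities, 1 on a linear scale per probe set and array. Per the labels' protocols, polysome-bound mRNA was purified, linearly amplified and biotin-labelled as cDNA. How probes were summarised or arrays scaled is not given in the sources used here, and the table holds 0 other per-sample columns and no detection calls. Of 45101 probe sets 64 controls were left out. Of the rest, 34945 had 1 gene symbol in the platform annotation, 932 several and 9160 none. RefSeq names (GRCm38.p6) changed 0 symbols.

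Values were transformed to log2(intensity + 16). One model with 3 stage means over 9 arrays was fitted by limma 3.58.1 (lmFit, eBayes; R 4.3.3), two-sided, with Benjamini-Hochberg adjustment over all 45037 probe sets, and was tested on simulated data. Every probe set was kept, and the brightest has the highest mean over 9 arrays. All 9 measured genes are named, with up to 4 passing genes per list having the largest change, and 3 nearest profiles per passing gene. Patj, Actr3, Pfn1, Cfl1, Cfl2, Actb and Rcc1 were named outside this rule, after their values were seen. One further gene list is not reported here. Members and lists were chosen with earlier results of these data known. Same-numbered arrays of different stages had correlations of deviations from 0.001 to 0.194 over 9 pairs, against -0.236 to 0.1 over 18 pairs with other numbers. These values do not settle whether a shared number marks a pair. Numbers were not used as pairs in the main fit, and a fit with them as blocks is among the alternatives. Alternatives covered the pseudocount, filter, scaling, probe set choice, model and each array left out.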

Additional observations from a re-analysis of the deposited data

How the results depend on the processing

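The number of the 9 genes with at least 1 probe set that passed was 0 between MI and GV under every alternative run. Between MII and MI it was 3, with 1 at pseudocount 1, 5 after quantile normalization and 5 after scaling every array to 1 common 95th percentile, and 1 to 3 when 1 array was left out. It was 1 without GV replicate 2, MI replicate 2 or 3, or any MII array. Between MII and GV it was 5, with 3 to 6 when 1 array was left out (3 without GV replicate 2 or MII replicate 1) and 5 without MI replicate 3. With the replicate block it was 2 between MII and MI and 5 between MII and GV. The labels do not say what a shared number marks, and not every same-number correlation was over 0.1. All were above 0 (0.001 to 0.194), and 6 of 9 arrays were most like their same-numbered arrays of both other stages, a hint from the data and not from the design. The block took 1 call, that of Spire1 between MII and MI (adjusted p = 0.081).

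No called probe set changed direction. Of the 8 calls between MII and GV, 18 of 72 values from fits without 1 array lost the threshold (adjusted p from 0.0508 to 0.0842), as did 4 of 80 under other alternatives, all 4 at pseudocount 1. Of the 3 calls between MII and MI, 15 of 27 values without 1 array and 7 of 27 others were lost.

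Over all alternatives the count of PAR genes that rose between MII and GV ran from 2 to 5 (4 as reported), of Arp2/3 genes from 0 to 4 (1), and between MII and MI of Arp2/3 genes from 0 to 5 (3). Falls in the actin assembly list ran from 6 to 9 (8), and those in the vesicle and Ran list from 0 to 6 (6), 0 at pseudocount 1. Over the whole array 1004 to 2337 probe sets or genes rose between MII and GV (1690 as reported) and 222 to 1293 between MII and MI (707). The number of arrays and signal near background limit precision.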

Other observations

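Wasl, which activates the Arp2/3 complex, had 0.11 between MII and GV but 1.36 between MII and MI at its brightest probe set, with 973 ± 207 in MII, 374 ± 104 in MI and 894 ± 159 in GV oocytes (SD, n = 3 each). Its mean was lowest on the MI arrays at that probe set. At 1452193_a_at the change between MII and MI was 1.48 (limma adjusted p = 0.0518) and that between MI and GV -0.87 (adjusted p = 0.77), neither of which passed, and at 1426777_a_at the change between MII and MI was -0.06.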
